A study of Gallus gallus with 8 samples.

Results

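The transition from the central to the equatorial epithelium of the embryonic chicken lens was examined by comparing transcript levels in EQ, the equatorial epithelium, with those in EC, the central epithelium. Both regions were microdissected from lenses of embryonic day 13 chickens, with no treatment or genotype named in the labels, and each is represented by 2 libraries made from separate pools of 100 lenses. The series holds 8 libraries of 4 lens regions, and because whole lenses were divided into the regions, an EQ and an EC library can share lenses. The loci described here are those with a gene symbol, and not only an Ensembl identifier or the name of a small RNA, that had an FPKM (a fragment count scaled to transcript length and library size) of 1 or more in EQ or in EC. Of 16906 loci in the table, 12908 carried a gene symbol, 1068 carried only RNA names and 2930 carried only an Ensembl identifier or no name, and 9762 loci met both conditions.

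The lens grows from a single layer of epithelium over its front surface. Cells of the central epithelium divide or rest there, whereas cells that reach the equator leave the cell cycle, elongate and begin to make the crystallins, the soluble proteins that fill the fiber cells. Fibroblast growth factors (FGF), bone morphogenetic proteins (BMP), Notch and Wnt ligands are known from vertebrate lenses as signals that act at this border.

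For each locus the authors' table gives 1 FPKM per region, in which the 2 libraries are pooled, with the lower and upper bounds of a 95% interval. These intervals are given in parentheses behind each FPKM and are the only error used here, since values per library were not analysed. With 1 value per region no test of the difference was computed from these values. The read count behind each value was not analysed, and each difference is a description of these pools. The median half-width of the interval was 64.1% of the FPKM in EQ and 67.0% in EC, so that many differences of 2-fold lie within overlapping intervals. Differences are given as the log2 ratio of EQ over EC after subtraction of the median log2 ratio of the 8971 loci at 1 FPKM or more in both regions, which was 0.26 (a factor of 1.20). This quantity is called the centred log2 ratio, and without centring each ratio and each list median is higher by that amount. Intervals are printed uncentred. They are called separate or overlapping after the EQ bounds are divided by that factor, below termed after centring. Some calls therefore differ from the printed bounds. Loci at the edge of the FPKM minimum were ASTL (1.00 FPKM in EQ and 0.254 in EC) just inside it and LRRN2 (0.582 FPKM in EQ and 0.999 in EC) just outside it.

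Most loci had similar levels on both sides of this step. Of the 9747 loci for which a ratio could be computed, 8161 (83.7%) lay within 2-fold of the median ratio. Another 525 (5.39%) were 2-fold or more higher in EQ, and 1061 (10.9%) were 2-fold or more lower in EQ. The 5th and 95th percentiles of the centred log2 ratio were -1.66 and 1.05. After division of the EQ bounds by the centring factor, the intervals of EQ and EC were separate for 46 of the loci that were higher (0.472% of loci with a ratio) and for 108 of those that were lower (1.11%). Without centring the counts were 830 higher and 787 lower, which moves the share of higher loci among those past 2-fold to 51.3%, against 33.1% with centring. The excess of lower loci thus depends on the scaling between the regions.

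The loci past 2-fold were not spread evenly over expression levels. Loci were ranked by the geometric mean of the 2 FPKM values and divided into 5 bins of like size. In the lowest bin, 170 loci (8.72%) were higher and 534 (27.4%) were lower in EQ. In the highest bin, 122 loci (6.26%) were higher and 99 (5.08%) were lower. The lowest bin began at a geometric mean of 0.234 FPKM, which is under the FPKM minimum. Because either region could meet that minimum, loci with such a low mean were admitted only if their values differed widely. The shares past 2-fold in the lowest bin are therefore partly set by this filter and are not a measure of expression level alone. Among the loci past 2-fold, the lower ones were in the majority in the lowest bin and not in the highest.

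**Figure D1:**
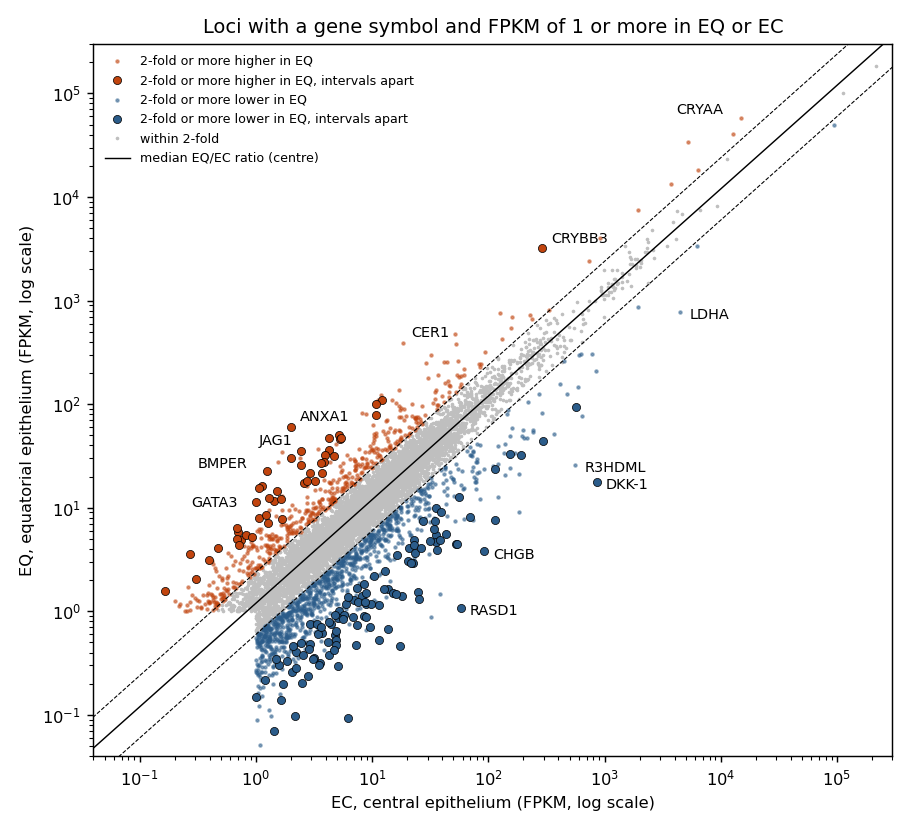
FPKM of each locus in EQ (vertical axis) against EC (horizontal axis), both on log scales, for the 9747 loci above 0 in both regions. The solid line marks the median ratio and the dashed lines 2-fold differences from it. The 525 loci 2-fold or more higher in EQ are orange-red and the 1061 loci 2-fold or more lower are blue. Outlined points are the 46 and 108 loci whose 95% intervals did not overlap after centring.

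Markers of cells outside the lens epithelium differed between the regions and are given before the results. The marker and gene lists were chosen with earlier results of these data known. Their shares beside those over all loci are therefore descriptions and not independent support. Of 26 member loci among the retina, ciliary and pigment epithelium markers, 22 (84.6%) were 2-fold or more lower in EQ and none was higher. Over all loci, 10.9% were lower and 5.39% were higher. The median centred log2 ratio of this list was -2.36, and its summed level was 483 FPKM in EQ, against 1495 FPKM in EC. Of the blood cell markers, 13 loci were members, 9 (69.2%) were lower and 2 (15.4%) were higher. Their summed level was 733 FPKM in EQ, against 1730 FPKM in EC. Within these sums, CA2, a locus within 2-fold, had 508 FPKM in EQ and 627 FPKM in EC. Of the vascular and mesenchymal markers, 11 loci were members, 7 (63.6%) were lower and 1 (9.09%) was higher. Their summed level was 39.7 FPKM in EQ, against 66.1 FPKM in EC. The remaining markers in the table were under 1 FPKM in both regions, namely 10 of 36 loci of the first list, 13 of 26 of the second and 13 of 24 of the third.

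Hemoglobin transcripts, which define red blood cells, were present in both regions. HBAA, an alpha-type globin, had 94.1 FPKM (23.4 to 140.5) in EQ, against 564 FPKM (131 to 921) in EC. HBB, a beta-type globin, had 44.1 FPKM (12.7 to 70.9) in EQ and 297 FPKM (72.5 to 509) in EC. The carbonic anhydrase CA2 had 508 FPKM (106 to 910.3) in EQ and 627 FPKM (25.8 to 1304) in EC. HBAA, HBB and the globin HBAD were lower in EQ with intervals that were separate after centring, whereas CA2 lay within 2-fold. The globins HBE and HBG1 were lower with overlapping intervals. The 2 blood cell loci that were higher in EQ were GYPC and CD74, both with overlapping intervals. GYPC had 20.1 FPKM in EQ and 5.99 FPKM in EC, and CD74 had 24.8 FPKM in EQ and 8.69 FPKM in EC. Of the blood cell loci in the table, 3 were listed at 0 in EQ and 2 in EC, among them the embryonic globin HBZ in both regions. Of the markers of the neighboring eye tissues, STRA6, a receptor for the retinol carrier, had 146 FPKM (40.5 to 250.2) in EQ, against 592 FPKM (118 to 1061) in EC. FABP7, a fatty acid binding protein of neural progenitors, had 32.9 FPKM (11.7 to 50.2) in EQ and 154 FPKM (52.2 to 255) in EC. The collagen COL9A2 had 21.1 FPKM (7.11 to 35.0) in EQ and 184 FPKM (28.9 to 249) in EC. All of these 3 were lower in EQ, and FABP7 alone had separate intervals. Opticin (OPTC), a small proteoglycan of the ciliary body, differed little, with 187 FPKM (60.7 to 313) in EQ and 227 FPKM (65.6 to 388) in EC. The pigment cell enzyme TYR had 0.0883 FPKM in EQ and 0.319 FPKM in EC. The 4 most abundant vascular and mesenchymal markers were KERA, PLVAP, CLDN5 and COL1A2. KERA and PLVAP lay within 2-fold. CLDN5 had 1.65 FPKM (0.243 to 2.92) in EQ and 13.7 FPKM (3.89 to 23.3) in EC. COL1A2 had 2.74 FPKM (0.876 to 4.41) in EQ and 8.41 FPKM (3.67 to 13.1) in EC. In such bulk samples fewer cells of a type and less RNA per cell cannot be told apart. The part of these cells in the lower levels described below was not tested. Without the loci of all 3 marker lists, 521 loci were higher and 1025 were lower in EQ. These lists hold 50 members, so leaving them out cannot show how far other cells contribute to the remaining loci.

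Crystallins, which define lens cells, were abundant as a group in both regions and had a higher level in EQ at each of the 11 loci measured. Of 11 crystallin loci, 10 (90.9%) were 2-fold or more higher in EQ, against 5.39% over all loci, and none was lower. The median centred log2 ratio was 1.77, against -0.02 over all loci with a ratio. Summed over the list, crystallins made up 17.6% of the FPKM of all members in EQ and 5.21% in EC. That total, 927023 FPKM in EQ and 808625 FPKM in EC, includes mitochondrial loci whose values exceed the tops of their own intervals. The largest of these had 184653 FPKM in EQ and 215887 FPKM in EC. The shares therefore depend on those loci, and they leave out the delta-crystallin ASL1. CRYAA, the alpha-crystallin and chaperone of lens cells, had 58291 FPKM (97.7 to 148395) in EQ, against 14933 FPKM (9.63 to 35620) in EC. CRYAB, its partner, had 18282 FPKM (43.7 to 41598) in EQ, against 6317 FPKM (61.7 to 16447) in EC. The intervals of these abundant transcripts are very wide and overlap.

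The largest ratios of the list belonged to CRYBB3 and CRYBB2, beta-crystallins and structural proteins of the fiber cytoplasm. CRYBB3 at chr15:6993056-6994735 of galGal4 had 3202 FPKM (546 to 5851) in EQ, against 289 FPKM (70.1 to 430.3) in EC, 9.25-fold higher in EQ, and was the crystallin whose intervals did not overlap. Its neighbor CRYBB2 at chr15:6996738-6998847 had 34093 FPKM (1823 to 66269) in EQ, against 5249 FPKM (749 to 9732) in EC. CRYBB2 was more abundant than CRYBB3 in both regions on the per-length FPKM scale. CRYBA1 had 4053 FPKM (587 to 7484) in EQ and 916 FPKM (224 to 1605) in EC. The gamma-type CRYGS had 101 FPKM (31.5 to 145) in EQ and 22.2 FPKM (5.63 to 33.8) in EC. The lowest centred log2 ratio of the list, 0.91, belonged to the delta-crystallin gene ASL2. Transcripts of the other delta-crystallin gene, ASL1, were left out of the authors' run, so the family is not complete here.

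Structural genes of fiber cells were less uniformly higher. Of 21 loci of the list of fiber structure and channels, 8 (38.1%) were 2-fold or more higher and 1 (4.76%) was lower (median 0.64). The shares over all loci were 5.39% and 10.9%. NHS, an actin regulator mutated in a human cataract syndrome, had 4.31 FPKM (1.59 to 7.03) in EQ, against 0.946 FPKM (0.244 to 1.65) in EC. Vimentin (VIM), the intermediate filament protein of epithelium and young fibers, had 7550.1 FPKM (29.1 to 15234) in EQ, against 1955 FPKM (280.0 to 3623) in EC. CAPRIN2, an RNA binding protein, had 24.3 FPKM (9.19 to 39.5) in EQ and 7.21 FPKM (2.62 to 11.8) in EC. Each of these 3 was higher in EQ with overlapping intervals. CP49 and BFSP1 form the beaded filament of fiber cells, and of the pair CP49 passed 2-fold. CP49 had 247 FPKM (68.7 to 415) in EQ and 85.7 FPKM (26.8 to 144) in EC. BFSP1 had 159 FPKM (40.1 to 277) in EQ and 77.9 FPKM (9.33 to 150.2) in EC. Without centring, BFSP1 passed 2-fold as well, at a log2 ratio of 1.02. EPB41L2, a membrane skeleton protein, had 30.0 FPKM (8.54 to 51.3) in EQ and 8.20 FPKM (2.26 to 14.2) in EC. HSPB1, a small heat shock protein, was the locus of the list that was lower, with 7.96 FPKM (2.12 to 12.5) in EQ and 34.4 FPKM (9.98 to 52.2) in EC.

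The cadherins CDH2 and CDH1, named here for their roles, differed by less than 2-fold. CDH2 (N-cadherin), the main cadherin of lens cells, had 167 FPKM (21.9 to 312) in EQ, against 209 FPKM (29.2 to 388) in EC. CDH1 (E-cadherin) had 2.35 FPKM (0.892 to 3.79) in EQ and 2.82 FPKM (0.982 to 4.64) in EC. Both lay within 2-fold, as did GAPDH, a glycolytic enzyme often used as a reference, with 7536 FPKM (779.6 to 14260) in EQ and 6663 FPKM (686 to 12623) in EC.

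Genes of cell division were lower in EQ. The list of mitosis and cytokinesis held 74 loci, of which 60 (81.1%) were 2-fold or more lower and 0 were higher, and 72 had a centred ratio below 0 (median -1.38). UBE2C, the ubiquitin conjugating enzyme that drives exit from mitosis, had 17.8 FPKM (4.76 to 29.2) in EQ, against 78.9 FPKM (23.2 to 105) in EC. SPAG5, a spindle protein, had 5.77 FPKM (2.31 to 9.22) in EQ and 20.7 FPKM (5.49 to 50.2) in EC. ANLN, a scaffold of the cleavage furrow, had 2.04 FPKM (0.713 to 3.40) in EQ and 6.41 FPKM (1.90 to 10.9) in EC. CENPA, the centromere histone, showed the largest difference, a centred log2 ratio of -3.53, but its FPKM of 13.3 in EC exceeds the top of its interval. None of the 74 loci had separate intervals. The share of lower loci was 81.1%, against 10.9% over all loci. The loci were measured in the same pools and are not independent, so their number does not measure certainty.

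DNA replication differed less. Of 56 loci for replication and nucleotide supply, 19 (33.9%) were 2-fold or more lower, 0 were higher and 46 had a centred ratio below 0 (median -0.61). The share of lower loci over all loci was 10.9%, and that of higher ones 5.39%. CDC6, which loads the replicative helicase, had 0.721 FPKM (0.106 to 1.27) in EQ, against 2.93 FPKM (0.529 to 4.23) in EC. MCM3, a subunit of that helicase, had 4.92 FPKM (2.07 to 7.76) in EQ and 13.0 FPKM (2.59 to 25.6) in EC. Both serve the same step, the preparation of replication origins. CDC45, an activator of the helicase, had 3.83 FPKM (1.05 to 6.66) in EQ and 10.5 FPKM (3.39 to 17.6) in EC. TOP2A, the topoisomerase of dividing cells, had 10.97 FPKM (4.15 to 17.8) in EQ and 28.4 FPKM (2.99 to 54.6) in EC. PCNA, the sliding clamp and the most abundant locus of the list in EC, lay within 2-fold, with 76.4 FPKM (30.4 to 121) in EQ and 105 FPKM (37.2 to 169.7) in EC.

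In contrast, regulators of the G1 phase were split. The list held 32 loci, of which 4 (12.5%) were higher and 6 (18.75%) were lower, against 5.39% and 10.9% over all loci. The median was -0.04, and between -0.09 and 0.45 under the other settings. The cyclin-dependent kinase inhibitor CDKN1B (p27), which holds cells out of the cycle, had 97.8 FPKM (21.4 to 174) in EQ, against 35.9 FPKM (14.6 to 56.8) in EC. The D-type cyclins, partners of CDK4 and CDK6, were higher as well. CCND1 had 66.9 FPKM (7.62 to 158) in EQ and 26.5 FPKM (1.75 to 64.2) in EC. CCND2 had 24.7 FPKM (4.5 to 50.8) in EQ and 9.87 FPKM (1.23 to 23.9) in EC. TP53INP1, a stress-induced protein, had 6.98 FPKM (2.54 to 11.4) in EQ and 2.72 FPKM (0.673 to 4.83) in EC. Lower loci included CDK2, the kinase of S phase entry, and 2 members of the E2F family, which drive or close the S phase program. CDK2 had 10.1 FPKM (3.35 to 16.3) in EQ and 25.3 FPKM (8.29 to 39.1) in EC. E2F1 had 6.03 FPKM (2.06 to 10.01) in EQ and 12.7 FPKM (1.62 to 30.8) in EC. E2F8 had 1.68 FPKM (0.6 to 2.72) in EQ and 4.14 FPKM (1.62 to 6.65) in EC. All 3 lay between 2-fold and 4-fold lower. MXD3, a partner of MAX, had 3.09 FPKM (0.519 to 5.53) in EQ and 11.6 FPKM (2.07 to 13.7) in EC. The intervals of all these G1 loci overlapped.

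**Figure D2:**
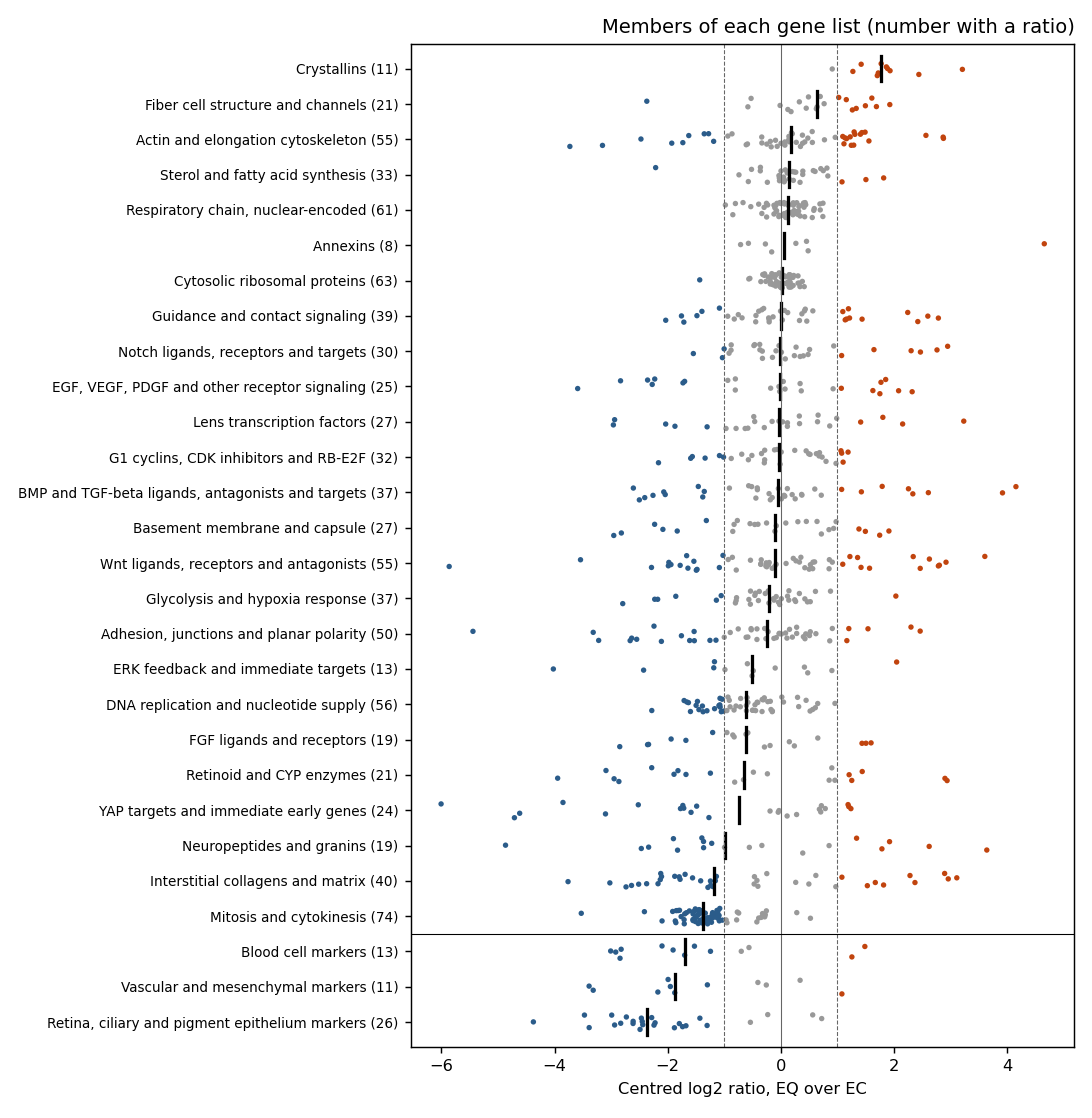
Centred log2 ratio of EQ over EC for each locus of 25 gene lists and, under the horizontal line, 3 lists of markers of other cells. Each point is a locus, orange-red if 2-fold or more higher and blue if 2-fold or more lower in EQ, and the black bars are list medians, which run between 1.77 for crystallins and -2.36 for retina, ciliary and pigment epithelium markers.

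Transcription factors of the lens had no common direction. Of 27 loci, 4 (14.8%) were 2-fold or more higher and 5 (18.5%) were lower, against 5.39% and 10.9% over all loci. The median was -0.03, and 0.23 without centring. GATA3, a zinc finger factor of early fiber cells, had 11.3 FPKM (3.11 to 19.7) in EQ, against 1.007 FPKM (0.357 to 1.66) in EC, 9.41-fold higher in EQ with intervals that did not overlap. RBM24, an RNA binding protein listed with these factors, had 69.5 FPKM (4.02 to 142) in EQ and 13.0 FPKM (4.19 to 21.9) in EC. PROX1, a homeobox factor needed for fiber elongation in mice, had 76.0 FPKM (5.31 to 156) in EQ and 23.9 FPKM (6.68 to 40.9) in EC. Its relative PROX2 had 5.37 FPKM (2.08 to 8.66) in EQ and 1.29 FPKM (0.0931 to 3.10) in EC. These 3 loci were higher in EQ with overlapping intervals. SOX2, a factor of early lens induction, lay close to the median ratio with 8.76 FPKM (2.50 to 14.0) in EQ and 7.49 FPKM (1.84 to 12.2) in EC. FOXE3, a factor of lens epithelium, was under the FPKM minimum, with 0.159 FPKM in EQ and 0.318 FPKM in EC. PAX6 and CDKN1C were not analysed here.

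The 5 transcription factors that were lower were SIX6, TFAP2C, CITED2, TBX2 and LHX2. SIX6, a homeobox factor of the retina that is also on the retina, ciliary and pigment epithelium list, had 3.63 FPKM (1.25 to 5.94) in EQ, against 23.3 FPKM (5.37 to 24.4) in EC. TFAP2C, an AP-2 factor of surface ectoderm, had 1.61 FPKM (0.532 to 2.66) in EQ and 5.53 FPKM (1.33 to 9.74) in EC. These were lower in EQ, with intervals separate after centring for SIX6 alone. CITED2, a coactivator, had 2.23 FPKM (0.382 to 4.30) in EQ and 6.81 FPKM (2.66 to 10.9) in EC. TBX2 had 0.161 FPKM (0 to 0.342) in EQ and 1.05 FPKM (0.274 to 1.78) in EC. SIX6 and LHX2 are shared with that marker list, of which 22 of 26 loci were lower in EQ, and their part in the result was not tested.

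Genes of the Notch pathway, in which membrane ligands activate receptors on neighboring cells, were mostly near the median ratio, with a few ligands and targets higher in EQ. Of 30 loci, 6 (20%) were 2-fold or more higher and 3 (10%) were lower, against 5.39% and 10.9% over all loci. The median was -0.01, and 0.25 without centring. JAG1, a ligand known from mice to be needed for fiber growth, had 31.4 FPKM (9.40 to 53.4) in EQ, against 4.74 FPKM (1.83 to 7.67) in EC. DNER, a ligand-like membrane protein, had 179 FPKM (47.3 to 310.3) in EQ, against 30.3 FPKM (11.2 to 49.4) in EC. The receptors lay within 2-fold. NOTCH1 had 19.1 FPKM (5.76 to 32.4) in EQ and 15.1 FPKM (2.65 to 27.7) in EC. NOTCH2 had 26.3 FPKM (6.54 to 46.0) in EQ and 15.7 FPKM (4.42 to 27.0) in EC.

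Of its targets, 4 were higher in EQ. NRARP, a feedback inhibitor induced by Notch, had 101 FPKM (20.2 to 105) in EQ, against 10.9 FPKM (1.38 to 13.3) in EC, 7.72-fold higher in EQ. HEYL, a repressor of the HEY family, had 32.1 FPKM (12.5 to 51.7) in EQ, against 3.95 FPKM (0.492 to 7.99) in EC. The intervals of NRARP, HEYL and JAG1 did not overlap. HES5 and HEY1, repressors induced by Notch, had centred log2 ratios of 1.65 and 1.08. Such loci, named with a centred log2 ratio alone, were added after their values were seen. The ligand DLL1 had 2.98 FPKM (1.04 to 4.88) in EQ and 5.09 FPKM (2.08 to 8.06) in EC. The Notch inhibitor NUMB had 6.09 FPKM (2.65 to 9.52) in EQ and 10.2 FPKM (4.39 to 16.0) in EC. Both were just past 2-fold lower with centring and within 2-fold without it. HES4, another repressor of this family, has 2 loci in the table, and the one past 2-fold had 6.11 FPKM (2.60 to 9.58) in EQ and 14.9 FPKM (5.58 to 24.2) in EC. The other HES4 locus was more abundant and lay within 2-fold, with 52.4 FPKM (19.6 to 83.7) in EQ and 80.4 FPKM (24.5 to 129) in EC.

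Wnt genes past 2-fold were found in both directions within almost every class of the pathway. Wnt ligands bind Frizzled receptors, R-spondins amplify the signal through LGR receptors, and the Dickkopf protein DKK-1 blocks it. Of 55 loci, 12 (21.8%) were 2-fold or more higher and 14 (25.5%) were lower, against 5.39% and 10.9% over all loci. The median was -0.11, and between -0.23 and 0.26 under the other settings. WNT7A had 80.3 FPKM (8.06 to 160.4) in EQ, against 8.86 FPKM (1.16 to 18.4) in EC. WNT7B had 40.9 FPKM (8.84 to 72.9) in EQ and 4.89 FPKM (0.777 to 9.89) in EC. Both WNT7 ligands were higher in EQ with overlapping intervals. RSPO1, an R-spondin, had 16.4 FPKM (5.35 to 27.4) in EQ, against 1.12 FPKM (0 to 4.13) in EC, 12.2-fold higher in EQ. DRAXIN, a secreted guidance factor that also blocks Wnt signaling, had 5.80 FPKM (2.30 to 9.22) in EQ and 0.703 FPKM (0.159 to 1.19) in EC. The other R-spondins, RSPO3 and RSPO2, had centred log2 ratios of 2.63 and 1.42, so that the 3 R-spondins past 2-fold were all higher in EQ. The receptor FZD10 had 2.46, the Dickkopf proteins DKK3 and DKK2 had 2.34 and 1.57, the intracellular DAAM2 and DAAM1 had 1.36 and 1.10, and a locus merging LGR6 with an unnamed gene had 1.22.

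The antagonist DKK-1 at chr6:9764380-9766014 was among the most abundant transcripts that separate the regions. It had 17.7 FPKM (5.43 to 39.3) in EQ, against 861 FPKM (141 to 1021) in EC, 58.2-fold lower in EQ, and the intervals did not overlap. LGR5, the R-spondin receptor of adult stem cells, had 7.55 FPKM (2.70 to 12.4) in EQ, against 73.4 FPKM (3.62 to 153) in EC. LGR5 was lower in EQ, in the opposite direction to the R-spondins, with an EC interval that overlaps that of EQ. APCDD1, a membrane inhibitor of Wnt, had 0.75 FPKM (0.144 to 1.3) in EQ and 2.49 FPKM (0.864 to 4.10) in EC. KREMEN1, a coreceptor of Dickkopf, had 0.252 FPKM (0 to 0.6) in EQ and 1.03 FPKM (0.12 to 1.92) in EC. The ligands WNT2B and WNT6 had centred log2 ratios of -1.66 and -1.64, opposite in direction to WNT7A and WNT7B. Among the receptors, FZD8, FZD7, FZD1 and FZD2 had -1.94, -1.78, -1.54 and -1.02, and the coreceptor LRP5 had -1.49. The antagonist SFRP2 had -1.98, the inhibitor DACT1 -1.48, and the polarity cadherin CELSR1 -1.09.

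Genes of BMP and TGF-beta signaling past 2-fold were likewise found in both directions. Of 37 loci, 8 (21.6%) were 2-fold or more higher and 9 (24.3%) were lower, against 5.39% and 10.9% over all loci. The median was -0.04, and between -0.15 and 0.22 under the other settings. CER1, an extracellular antagonist of BMP and Nodal named for its role in head induction in frogs, had 391 FPKM (12.2 to 1012) in EQ, against 18.3 FPKM (2.18 to 34.4) in EC. Its centred ratio was 17.8-fold, the second largest of the loci named for size, yet the EQ interval is wide and overlaps that of EC. BMPER, which binds BMPs outside the cell, had 22.4 FPKM (5.73 to 39.1) in EQ, against 1.24 FPKM (0.137 to 2.34) in EC, 15.1-fold higher in EQ with intervals that did not overlap. Among intracellular components, ID1, an inhibitor of helix-loop-helix factors, had 79.3 FPKM (21.0 to 97.8) in EQ, against 10.9 FPKM (1.33 to 11.4) in EC. SMAD9, a receptor-activated SMAD, had 4.33 FPKM (1.64 to 7.00) in EQ and 0.718 FPKM (0.0909 to 1.27) in EC. Their relatives ID2 and the inhibitory SMAD6 had centred log2 ratios of 2.26 and 1.42, the activin subunit INHBB had 1.79, and the receptor BMPR1B had 1.08.

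The BMP ligands past 2-fold were lower in EQ. BMP4 had 0.661 FPKM (0.131 to 1.18) in EQ, against 2.93 FPKM (0.914 to 4.77) in EC. BMP7 had 4.63 FPKM (1.88 to 7.35) in EQ and 10.6 FPKM (3.44 to 17.8) in EC. Antagonists of the chordin and follistatin families were lower too. Chordin (CHRD) had 0.505 FPKM (0.0991 to 0.892) in EQ and 2.57 FPKM (0.743 to 4.36) in EC. CHRDL1 had 34.0 FPKM (12.1 to 55.8) in EQ and 136 FPKM (17.7 to 255) in EC. FSTL4, a follistatin-like protein, had 4.88 FPKM (1.78 to 7.97) in EQ and 23.1 FPKM (8.19 to 38.0) in EC, and was the one with separate intervals. The ligands BMP3 and TGFB2 had centred log2 ratios of -2.04 and -1.35, and the antagonists NBL1 and FSTL1 had -2.07 and -1.38. Extracellular antagonists were thus found on both sides, CER1 and BMPER higher in EQ and CHRD, CHRDL1 and NBL1 lower.

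Of the FGF receptors, FGFR2 was the one past 2-fold. FGFs bind a family of receptor tyrosine kinases and signal through ERK, among other routes. FGFR2 had 56.7 FPKM (12.6 to 101) in EQ, against 15.7 FPKM (2.92 to 29.7) in EC, 3.02-fold higher in EQ. FGFR1 had 71.4 FPKM (25.0 to 118) in EQ and 72.9 FPKM (23.9 to 122) in EC. FGFR3 had 154 FPKM (10.2 to 305) in EQ and 198 FPKM (6.97 to 436) in EC, both within 2-fold. On the FPKM scale, which is per length, FGFR3 had the highest level of the 3 and FGFR2 the lowest in both regions, with intervals that overlap between neighbors in this order. SULF2, which trims heparan sulfate, had 15.4 FPKM (6.16 to 24.7) in EQ and 4.55 FPKM (1.90 to 7.18) in EC. The heparan sulfate proteoglycan SDC2 had 112 FPKM (10.7 to 253) in EQ and 34.6 FPKM (10.9 to 58.3) in EC.

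The list of FGF ligands and receptors as a whole held 19 loci, of which 3 (15.8%) were higher and 6 (31.6%) were lower (median -0.62). This list also holds heparan sulfate proteoglycans and SULF enzymes, so its shares and median do not describe ligands and receptors alone. Of its loci past 2-fold, FGFR2, FGF10 and FGF13 belong to the FGF ligand and receptor families. Over all loci, 5.39% were higher and 10.9% were lower. The secreted ligand FGF10 had 0.868 FPKM (0.167 to 1.67) in EQ and 3.66 FPKM (1.17 to 6.17) in EC. The intracellular FGF13 had 0.484 FPKM (0 to 0.86) in EQ and 2.91 FPKM (0.86 to 4.87) in EC, with intervals separate after centring. Of the heparan sulfate proteoglycans, which hold FGFs at the cell surface, 4 were lower in EQ. GPC4 had 47.3 FPKM (8.41 to 86.5) in EQ and 202 FPKM (38.2 to 367) in EC. SDC4 had 8.05 FPKM (0.969 to 15.8) in EQ and 25.8 FPKM (3.00 to 51.4) in EC. The proteoglycans GPC3 and SDC3 had centred log2 ratios of -1.68 and -1.20. Among 13 loci of ERK feedback, 1 (7.69%) was higher and 4 (30.8%) were lower (median -0.51). ETV4, an ETS factor induced by FGF, had 9.58 FPKM (3.71 to 15.2) in EQ, against 1.94 FPKM (0.695 to 3.13) in EC. MKP3 (DUSP6), the phosphatase that turns ERK off, had 1.67 FPKM (0.568 to 2.71) in EQ, against 7.47 FPKM (2.71 to 12.2) in EC. Its intervals did not overlap after centring. Of other phosphatases, DUSP4 had 1.32 FPKM (0.21 to 2.31) in EQ and 2.51 FPKM (0.42 to 4.41) in EC. DUSP7 had 1.22 FPKM (0.428 to 2.05) in EQ and 2.30 FPKM (0.571 to 4.05) in EC. DUSP1, at a locus merged with a microRNA, had 0.656 FPKM (0 to 19.8) in EQ and 8.90 FPKM (0 to 76.3) in EC, where the intervals run down to 0 and overlap. DUSP4, DUSP7 and DUSP1 were weakly expressed, and in the lowest expression bin 27.4% of loci were lower. Without centring, DUSP4 and DUSP7 lay within 2-fold, at log2 ratios of -0.93 and -0.91.

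**Figure D3:**
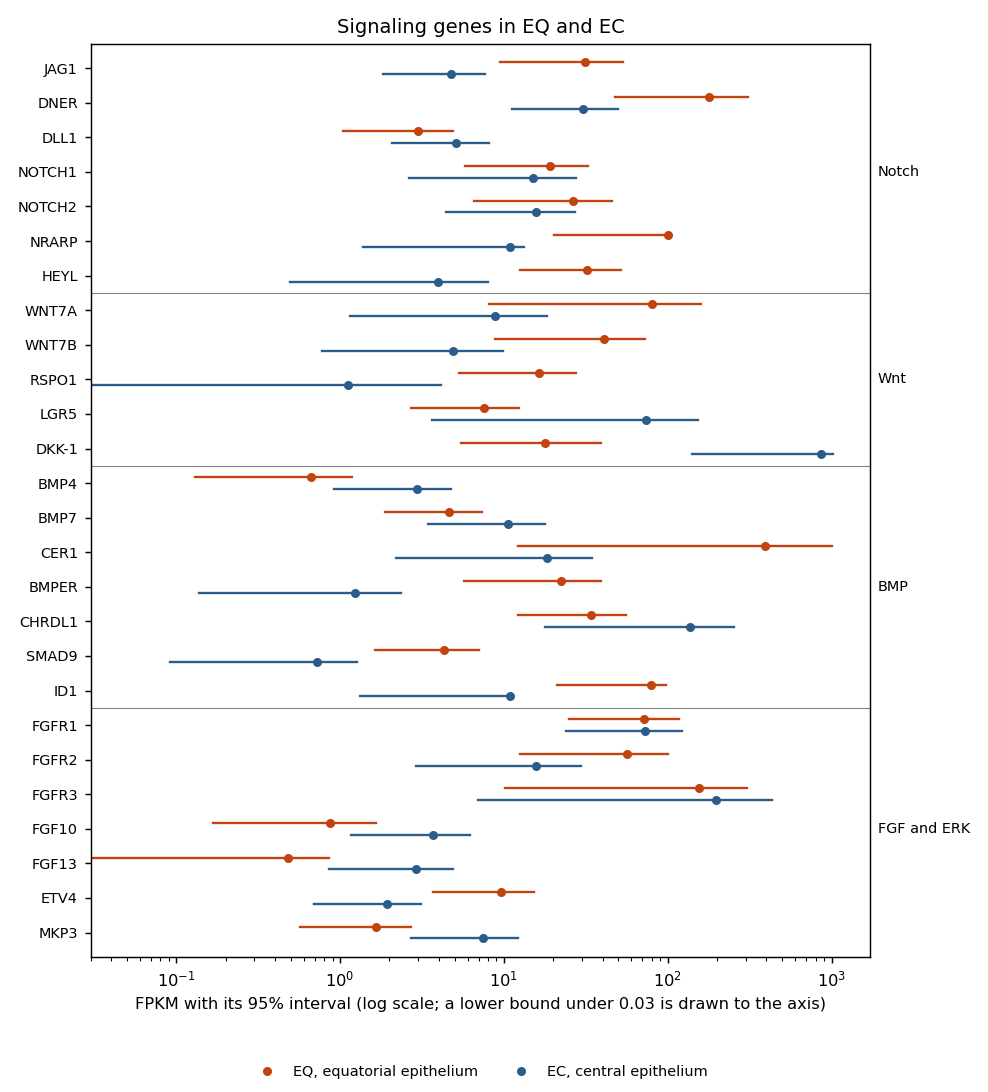
FPKM (log scale) in EQ (orange-red) and EC (blue) of genes of Notch, Wnt, BMP and FGF signaling, where points are the pooled values and lines the 95% intervals of the deposited table, not centred. JAG1, NRARP, HEYL, RSPO1, BMPER, SMAD9 and ID1 have higher values in EQ with separate intervals, DKK-1 has a lower value with separate intervals, and FGFR1, FGFR3 and NOTCH1 overlap almost fully.

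Other receptor pathways were divided as well. Of 25 loci for EGF, VEGF, PDGF and other receptors and ligands, 7 (28%) were higher and 7 (28%) were lower. The shares over all loci were 5.39% and 10.9%. The median was -0.02, and between -0.53 and 0.24 under the other settings. PDGFRA, the receptor for PDGF-A known from mouse lens, had 88.8 FPKM (17.0 to 161) in EQ, against 17.5 FPKM (3.26 to 31.8) in EC. EGFR had 3.40 FPKM (1.10 to 5.71) in EQ and 0.786 FPKM (0.3 to 1.27) in EC. EGFR binds epidermal growth factor and drives proliferation in many epithelia. The sphingosine phosphate receptor S1PR1 had 41.7 FPKM (17.9 to 65.5) in EQ and 10.2 FPKM (4.02 to 16.5) in EC. The kinase subunit PIK3CB had 16.3 FPKM (4.34 to 28.5) in EQ and 2.73 FPKM (1.14 to 4.32) in EC. These 4 loci were higher in EQ with intervals that overlapped after centring. The chemokine receptor CXCR4 had 0.75 FPKM (0.186 to 1.39) in EQ and 4.46 FPKM (1.49 to 7.44) in EC. The HGF receptor MET had 0.347 FPKM (0.0385 to 0.67) in EQ and 1.48 FPKM (0.593 to 2.37) in EC. IGFBP5, a carrier of insulin-like growth factors, had 0.734 FPKM (0 to 1.31) in EQ and 7.39 FPKM (1.14 to 8.67) in EC. CXCR4, MET and IGFBP5 were all lower in EQ with intervals that did not overlap after centring. IGFBP7, a relative of IGFBP5, had 208 FPKM (31.2 to 385) in EQ and 842 FPKM (133 to 1539) in EC. IGFBP7 was also lower, with overlapping intervals. VEGFA, the ligand for the VEGF receptors, had a centred log2 ratio of -2.23.

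Immediate early genes and targets of the coactivator YAP, which respond quickly to growth factors and stretch, included some of the most negative ratios. Of 24 loci, 12 (50%) were lower and 3 (12.5%) were higher, against 10.9% and 5.39% over all loci (median -0.73). This median was -0.07 with an FPKM minimum of 5 and -0.19 without loci whose FPKM exceeds the top of its interval. RASD1, a small GTPase induced by steroid hormones, had 1.08 FPKM (0.29 to 1.83) in EQ, against 57.7 FPKM (21.1 to 94.0) in EC, 64.2-fold lower in EQ and the largest difference of the loci named for size. RGS2, a brake on G protein signaling, had 0.671 FPKM (0.0908 to 1.18) in EQ, against 13.8 FPKM (5.36 to 22.0) in EC. RASD1 and RGS2 each act on G protein signaling. GEM, another small GTPase, had 4.42 FPKM (1.68 to 7.13) in EQ and 53.3 FPKM (12.9 to 94.2) in EC. FOSL2, a subunit of the AP-1 factor, had 0.525 FPKM (0 to 1.22) in EQ and 11.5 FPKM (3.48 to 18.4) in EC. The intervals did not overlap at any of these 4 loci. FOS, the partner of JUN in AP-1, had a centred log2 ratio of -2.52. CYR61 and CTGF, secreted matrix-associated proteins and common readouts of YAP, had -3.10 and -1.49, and AMOTL2 and the YAP kinase LATS2 had -1.59 and -1.73. PLK2, IER5 and SGK1 had -1.77, -1.72 and -1.27.

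The 3 loci of the list that were higher were JUN, NFIL3 and TRIB1. JUN, also a subunit of AP-1, had 67.0 FPKM (25.3 to 108) in EQ, against 23.7 FPKM (7.87 to 36.8) in EC. NFIL3 had 12.6 FPKM (5.40 to 19.8) in EQ and 4.63 FPKM (1.72 to 7.58) in EC. TRIB1, a pseudokinase, had 31.9 FPKM (5.24 to 60.7) in EQ and 11.6 FPKM (4.90 to 18.3) in EC. The intervals of these 3 loci overlapped.

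The list of retinoid and CYP enzymes holds enzymes and carriers of retinoids, the vitamin A derivatives that pattern the eye, together with the CYP1 enzymes. Of its 21 loci, 9 (42.9%) were lower and 5 (23.8%) were higher, against 10.9% and 5.39% over all loci. The 5 include CYP1B1 and CYP1A4, and the list median was -0.66. The degrading enzymes of the CYP26 family were divided. CYP26B1 had 1.41 FPKM (0.275 to 2.48) in EQ, against 18.2 FPKM (7.01 to 29.3) in EC, 15.4-fold lower in EQ with intervals that did not overlap. CYP26A1 at chr6:20110079-20114607 had 11.4 FPKM (4.35 to 18.4) in EQ and 3.50 FPKM (1.03 to 5.98) in EC. Its neighbor CYP26C1 at chr6:20116052-20123525 had 5.71 FPKM (2.21 to 9.25) in EQ and 2.00 FPKM (0.623 to 3.36) in EC. This adjacent pair was higher in EQ, opposite to CYP26B1, with overlapping intervals. RDH10, the enzyme of the first oxidation step, had 12.0 FPKM (4.02 to 20.0) in EQ, against 85.6 FPKM (6.54 to 187) in EC. ALDH6, of the family that makes retinoic acid, had 0.878 FPKM (0.226 to 1.5) in EQ and 5.34 FPKM (1.69 to 9.02) in EC. The binding protein CRABP-I had 5.51 FPKM (1.54 to 9.43) in EQ and 35.5 FPKM (11.4 to 53.7) in EC. The synthetic enzyme ALDH1A1 had a centred log2 ratio of -1.89, the carrier RBP4 -1.82, the reductase DHRS3 -1.24 and the receptor RARB 1.21. STRA6 and RBP3 of this list, both lower in EQ, are also on the marker list of retina, ciliary and pigment epithelium, of which 22 of 26 loci were lower, and the part of these cells in the result was not tested.

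CYP1 enzymes, which oxidize estrogens and foreign compounds among other substrates, were higher. CYP1B1, a gene of human congenital glaucoma, had 478 FPKM (13.5 to 965) in EQ, against 52.1 FPKM (17.8 to 86.2) in EC. CYP1A4 had 109 FPKM (36.7 to 180.0) in EQ and 12.2 FPKM (4.60 to 19.7) in EC, with intervals that did not overlap for CYP1A4.

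ANXA1 at chrZ:35881518-35899231 had the largest ratio of the loci named for size. This annexin, a calcium-dependent binder of membranes, had 60.6 FPKM (22.7 to 98.3) in EQ, against 2.01 FPKM (0.636 to 3.39) in EC, 25.2-fold higher in EQ, with intervals far apart. The other 7 annexin loci lay within 2-fold (median of the list 0.05, and between -0.16 and 0.31 under the other settings). HRH3, a histamine receptor, had 35.5 FPKM (11.8 to 59.3) in EQ and 2.42 FPKM (0.893 to 3.96) in EC. STEAP1, a metal reductase, had 15.5 FPKM (3.61 to 27.5) in EQ and 1.06 FPKM (0.356 to 1.76) in EC. These genes were all weakly expressed in EC. GCHFR, the regulator of the enzyme that starts biopterin synthesis, had 46.7 FPKM (17.7 to 73.6) in EQ and 4.25 FPKM (1.35 to 7.03) in EC. FABP3, a fatty acid binding protein of muscle, had 26.0 FPKM (7.82 to 43.9) in EQ and 2.46 FPKM (0.237 to 4.51) in EC. EDG7, a receptor for lysophosphatidic acid, had 12.5 FPKM (5.24 to 19.8) in EQ and 1.29 FPKM (0.291 to 2.33) in EC. The intervals of these 6 loci did not overlap. GABRA3, a subunit of the GABA receptor, had 81.7 FPKM (14.7 to 149) in EQ and 8.13 FPKM (3.09 to 13.2) in EC. The helicase DHX32 had 36.7 FPKM (4.80 to 68.6) in EQ and 3.45 FPKM (0 to 8.21) in EC, with overlap after centring in both cases.

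Among single-gene loci at 1 FPKM or more in both regions and 5 or more in one, the most negative ratios were those of RASD1 and DKK-1, given above, and then CHGB. CHGB (chromogranin B), a protein of secretory granules, had 3.79 FPKM (1.37 to 6.19) in EQ, against 92.3 FPKM (30.2 to 153) in EC, 29.2-fold lower in EQ. R3HDML had 26.0 FPKM (10.01 to 42.0) in EQ, against 561 FPKM (21.1 to 1387) in EC. CYTL1, a secreted cytokine-like protein, had 9.10 FPKM (3.78 to 14.5) in EQ and 183 FPKM (11.8 to 356) in EC. R3HDML and CYTL1 were abundant in EC, yet their EC intervals are wide. PTPRO, a receptor tyrosine phosphatase, had 1.31 FPKM (0.416 to 2.20) in EQ and 25.2 FPKM (8.85 to 41.5) in EC. ADAMTS3, a protease that trims procollagen, had 1.54 FPKM (0.422 to 2.68) in EQ and 24.7 FPKM (8.44 to 41.0) in EC. The monoamine transporter SLC29A4 had 7.63 FPKM (2.39 to 12.8) in EQ and 113 FPKM (15.8 to 210.1) in EC. These 3 membrane and secreted proteins were all lower with separate intervals. ADPRHL1 had 4.48 FPKM (1.69 to 7.24) in EQ and 53.0 FPKM (20.3 to 85.4) in EC. VIPR1 had 1.48 FPKM (0.431 to 2.53) in EQ and 16.1 FPKM (2.96 to 29.5) in EC. VIPR1 is a receptor for vasoactive intestinal peptide. TMEM72 had 1.49 FPKM (0.484 to 2.46) in EQ and 15.1 FPKM (5.54 to 24.8) in EC. C1QTNF4 had 1.16 FPKM (0.278 to 2.09) in EQ and 11.5 FPKM (4.59 to 18.4) in EC. Intervals overlapped for R3HDML and CYTL1 and not for the other 8 loci of this paragraph.

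**Figure D4:**
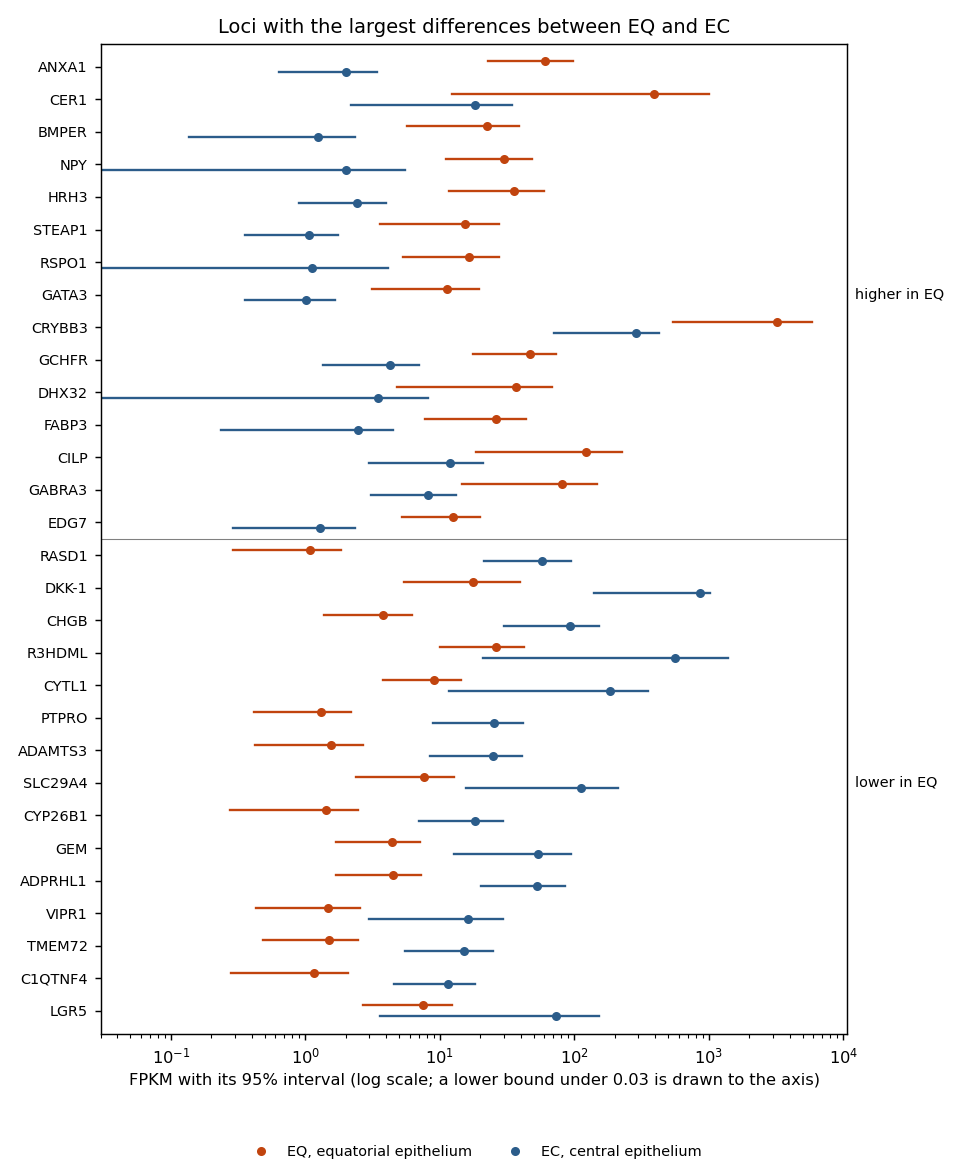
FPKM (log scale) in EQ (orange-red) and EC (blue) of the 15 loci with the largest higher and the 15 with the largest lower centred ratio among single-gene loci at 1 FPKM or more in both regions and 5 or more in one, with the 95% intervals of the deposited table. ANXA1 leads the upper block with 60.6 FPKM in EQ and 2.01 FPKM in EC and RASD1 the lower block with 1.08 FPKM in EQ and 57.7 FPKM in EC.

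Neuropeptides and granins, signal peptides and the proteins packed with them, were divided between the regions. Of 19 loci, 5 (26.3%) were higher and 9 (47.4%) were lower, against 5.39% and 10.9% over all loci. This list was chosen with earlier results known and also holds the hormone genes FSHB and AMH, so its shares are descriptive. The median was -0.995, and between -1.26 and -0.57 under the other settings. NPY, a widespread neuropeptide, had 30.1 FPKM (11.2 to 48.8) in EQ, against 2.02 FPKM (0 to 5.55) in EC. The tachykinin precursor TAC1 had 49.5 FPKM (20.5 to 78.5) in EQ and 10.9 FPKM (4.45 to 17.3) in EC. FSHB, the beta subunit of follicle-stimulating hormone, had 110.2 FPKM (26.1 to 195) in EQ and 14.9 FPKM (3.44 to 27.4) in EC. These 3 were higher in EQ, with intervals separate after centring for NPY. PAM, which amidates peptides, had 9.94 FPKM (4.14 to 15.7) in EQ and 30.9 FPKM (5.48 to 56.4) in EC. UTS2D, a urotensin-related peptide, had 3.28 FPKM (0.76 to 5.78) in EQ and 13.8 FPKM (3.80 to 23.7) in EC, both lower in EQ.

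Few loci were listed at 0 in 1 region. Of the members, 12 were listed at 0 in EQ and 3 were listed at 0 in EC, so no fold was computed for them. STC1 (stanniocalcin), a secreted regulator of calcium, was under 0.1 FPKM in EQ, with 0.0942 FPKM (0 to 0.618) in EQ, against 6.25 FPKM (1.65 to 10.5) in EC, and the intervals did not overlap. BC040587, listed at 0 in EQ, had 17.2 FPKM in EC, and GAL14 had 4.67 FPKM there, but both values lie above the upper bounds of their own intervals. GGA.361, GAL13 and CLPS were listed at 0 in EC and had 1.298, 1.20 and 1.11 FPKM in EQ, with lower bounds of 0.

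Genes of interstitial collagens and matrix were mostly lower in EQ. Of 40 loci, 22 (55.0%) were lower and 9 (22.5%) were higher, against 10.9% and 5.39% over all loci (median -1.18). COL6A1 had 0.317 FPKM (0.0689 to 0.551) in EQ, against 3.59 FPKM (1.51 to 5.68) in EC. EFEMP1, a fibulin, had 20.5 FPKM (6.70 to 34.3) in EQ and 139 FPKM (5.63 to 292) in EC. COL12A1 had 0.306 FPKM (0.0954 to 0.509) in EQ and 1.59 FPKM (0.541 to 2.66) in EC. COL6A1 and COL12A1 had separate intervals. TIMP3, an inhibitor of matrix proteases, had 1.25 FPKM (0 to 4.28) in EQ and 6.94 FPKM (0 to 34.5) in EC, with intervals that run down to 0. Fibronectin (FN1) had a centred log2 ratio of -1.80, the fibrillar collagens COL5A1 and COL5A2 had -2.17 and -1.29, and the crosslinking enzymes LOXL3, LOXL1 and LOXL2 had -2.13, -1.69 and -1.24. Of this list, 3 loci (COL1A2, DCN and KERA) are also vascular and mesenchymal markers, a list with 7 of 11 loci lower in EQ. Of these 3, COL1A2 was lower and KERA lay within 2-fold. DCN was higher, with 2.61 FPKM in EQ and 1.03 FPKM in EC. The part of such cells in this difference was not tested.

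Other matrix genes were higher in EQ. CILP, a cartilage matrix protein, had 123 FPKM (18.6 to 227) in EQ, against 11.9 FPKM (2.96 to 20.8) in EC. MXRA5, an adhesion protein of matrix, had 297 FPKM (3.92 to 625) in EQ and 31.9 FPKM (8.06 to 55.8) in EC. VIT (vitrin) had 97.0 FPKM (15.5 to 179) in EQ and 10.9 FPKM (4.20 to 17.6) in EC. These 3 were higher in EQ. Thrombospondin 1 (THBS1) had 257 FPKM (27.7 to 485) in EQ and 41.4 FPKM (7.20 to 75.7) in EC. The intervals of these 4 loci overlapped.

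The basement membrane, which forms the lens capsule, held 27 loci, of which 4 (14.8%) were higher and 6 (22.2%) were lower. The shares over all loci were 5.39% and 10.9%. The median was -0.10, and between -0.46 and 0.15 under the other settings. The laminin chain LAMA5 had 9.39 FPKM (3.54 to 15.2) in EQ, against 2.34 FPKM (0.544 to 4.49) in EC. FRAS1 and FREM1, proteins of 1 complex at epithelial basement membranes, were both higher. FRAS1 had 9.79 FPKM (3.55 to 16.0) in EQ and 2.17 FPKM (0.857 to 3.50) in EC. FREM1 had 6.83 FPKM (2.76 to 10.9) in EQ and 2.02 FPKM (0.727 to 3.33) in EC. NTNG1 had 13.8 FPKM (4.16 to 23.5) in EQ and 4.42 FPKM (1.87 to 6.97) in EC. NTNG1 is a membrane-anchored relative of the netrins. The collagen chain COL4A3 had 56.6 FPKM (14.5 to 98.5) in EQ and 200.5 FPKM (3.18 to 429) in EC. Agrin (AGRN) had 0.77 FPKM (0.295 to 1.24) in EQ and 3.02 FPKM (0.597 to 5.54) in EC. NTN1 (netrin) has 2 loci in the table, and the one on chromosome 18 had 0.855 FPKM (0.169 to 1.52) in EQ and 5.04 FPKM (1.61 to 8.45) in EC. The NTN1 locus on chromosome 14 differed in the opposite direction within 2-fold, with 2.27 FPKM in EQ and 1.05 FPKM in EC.

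Of 50 adhesion and junction loci, 14 (28.0%) were lower and 5 (10%) were higher in EQ, against 10.9% and 5.39% over all loci. Lower loci thus outnumber higher ones in both (median of the list -0.24, and 0.02 without centring). Several of the lower loci, such as PCDH18, PCDH8, PKP2 and ALCAM, were weakly expressed. In the lowest expression bin 27.4% of loci were lower. CGN (cingulin), a protein of tight junctions at a locus merged with a microRNA, had 0.888 FPKM (0 to 3.62) in EQ, against 32.3 FPKM (0.619 to 42.4) in EC. CDH11, a cadherin of mesenchyme, had 8.4 FPKM (2.90 to 13.9) in EQ and 44.5 FPKM (3.95 to 89.0) in EC. The protocadherin PCDH18 had 0.282 FPKM (0.0692 to 0.519) in EQ and 2.19 FPKM (0.726 to 3.67) in EC. CLDN5 and CLDN19 of this list are also marker genes of other cells. JAM2, a junctional adhesion molecule, had 21.6 FPKM (9.47 to 33.7) in EQ, against 3.67 FPKM (1.18 to 6.11) in EC, with separate intervals. PKP4, a catenin-like protein, had 47.0 FPKM (8.43 to 103) in EQ and 13.5 FPKM (5.16 to 21.8) in EC. NCAM1, a neural cell adhesion molecule, had 71.6 FPKM (6.35 to 137) in EQ and 26.0 FPKM (8.29 to 43.7) in EC. These were higher in EQ. PERP, a desmosome protein, had 2.84 FPKM (1.03 to 4.71) in EQ and 0.43 FPKM (0 to 0.905) in EC.

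Guidance genes past 2-fold were found in both directions. Of 39 loci, 10 (25.6%) were higher and 6 (15.4%) were lower, against 5.39% and 10.9% over all loci. The median was -0.0047, and between -0.21 and 0.25 under the other settings. RELN (reelin), which guides migrating neurons, had 27.9 FPKM (8.48 to 47.2) in EQ, against 3.84 FPKM (1.28 to 6.4) in EC. SEMA5A had 103 FPKM (31.1 to 175) in EQ and 16.0 FPKM (5.52 to 26.6) in EC. SEMA3G had 7.18 FPKM (2.82 to 11.5) in EQ and 1.27 FPKM (0.362 to 2.17) in EC. After centring, RELN and SEMA3G had separate intervals. SLIT2 had 27.8 FPKM (3.26 to 60.4) in EQ and 78.5 FPKM (3.94 to 172) in EC. SEMA3D had 0.825 FPKM (0.234 to 1.40) in EQ and 1.93 FPKM (0.409 to 3.45) in EC. SEMA3E had 0.972 FPKM (0.252 to 1.68) in EQ and 2.66 FPKM (0.505 to 5.61) in EC, all lower in EQ with overlapping intervals. SEMA3F shares a locus with GNAT1, from which it cannot be told apart. The ephrin EFNB2 had a centred log2 ratio of 1.22 and the receptors NRP2 and UNC5C had 1.14 and 1.10.

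Genes of the cytoskeleton were higher more often than lower. Of 55 loci for actin and elongation, 16 (29.1%) were higher and 9 (16.4%) were lower, against 5.39% and 10.9% over all loci (median 0.19). SCIN (scinderin), which cuts actin filaments, had 47.2 FPKM (14.1 to 80.2) in EQ, against 5.38 FPKM (1.29 to 9.51) in EC. TAGLN3, an actin binding protein of neurons, had 4.10 FPKM (1.38 to 6.77) in EQ and 0.469 FPKM (0 to 0.967) in EC, in both cases with intervals that did not overlap. COTL1, a coactosin, had 377 FPKM (25.8 to 854) in EQ and 53.2 FPKM (6.32 to 100.2) in EC. DMN (synemin) had 36.0 FPKM (5.57 to 66.6) in EQ and 10.2 FPKM (3.86 to 16.6) in EC. These 4 were higher in EQ. MYLK, the kinase that activates myosin, had 2.90 FPKM (1.02 to 4.78) in EQ, against 21.5 FPKM (6.76 to 36.3) in EC. The neurofilament NEFM had 0.428 FPKM (0.0993 to 0.745) in EQ and 4.74 FPKM (1.69 to 7.6) in EC. PDLIM3 had 1.85 FPKM (0.595 to 3.08) in EQ and 8.57 FPKM (2.98 to 14.1) in EC, all lower with intervals that did not overlap after centring. ARPC1B, of the actin branching complex, had 0.52 FPKM (0 to 0.954) in EQ and 1.65 FPKM (0.424 to 2.86) in EC.

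Metabolic and housekeeping lists stayed near the median. None of 61 loci of the nuclear-encoded respiratory chain was past 2-fold in either direction (median 0.12), and its 2 most abundant loci were COX6C and UQCR10. COX6C had 444 FPKM (142 to 741) in EQ and 442 FPKM (94.6 to 613) in EC. UQCR10 had 606 FPKM (138 to 885) in EQ and 336 FPKM (76.0 to 403) in EC. Of 63 ribosomal protein loci, 1 was lower and 0 were higher (median 0.03, and between -0.02 and 0.29 under the other settings), and that locus, RPS12, is merged with a small nucleolar RNA and had 866 FPKM (175 to 1472) in EQ and 1954 FPKM (161 to 3571) in EC. With shares of 0 to 1.59%, these lists lie under the background of 5.39% and 10.9%. Of 33 loci for sterol and fatty acid synthesis, 3 (9.09%) were higher and 1 (3.03%) was lower (median 0.15). ELOVL7, a fatty acid elongase, had 3.17 FPKM (1.17 to 5.15) in EQ and 0.752 FPKM (0.0531 to 1.49) in EC. GPAM, which starts glycerolipid synthesis, had 9.54 FPKM (3.00 to 16.1) in EQ and 2.81 FPKM (1.14 to 4.48) in EC. The desaturase FADS2 had 41.3 FPKM (12.4 to 70.1) in EQ and 16.3 FPKM (5.93 to 26.6) in EC. These 3 were higher in EQ with overlapping intervals. ACSL4, which activates long fatty acids, had 13.1 FPKM (3.79 to 22.3) in EQ and 50.6 FPKM (16.1 to 84.9) in EC.

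Genes of glycolysis and the response to low oxygen mostly lay within 2-fold. Of 37 loci, 6 (16.2%) were lower and 1 (2.70%) was higher, against 10.9% and 5.39% over all loci (median -0.21, and 0.05 without centring). LDHA, which makes lactate, had 771 FPKM (165 to 1377) in EQ, against 4469 FPKM (53.7 to 9113) in EC, 6.94-fold lower in EQ, although the EC interval is wide. HK2, a hexokinase, had 5.45 FPKM (0.205 to 11.3) in EQ and 21.3 FPKM (2.74 to 50.1) in EC. ENO2, an enolase, had 2.64 FPKM (0.627 to 6.20) in EQ and 7.98 FPKM (3.20 to 12.7) in EC. These enzymes stand at the start and near the end of the pathway. EGLN3, an oxygen sensor, had 0.886 FPKM (0.245 to 1.55) in EQ and 3.35 FPKM (1.22 to 5.47) in EC. NDRG1, which is induced by low oxygen in human cells, was the higher locus with 52.5 FPKM (19.0 to 86.0) in EQ and 10.7 FPKM (3.28 to 18.3) in EC. The 3 mitochondrial loci, given after their values were seen, had centred log2 ratios of -1.21, -0.40 and -0.48, but each FPKM exceeds the top of its interval.

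**Figure D5:**
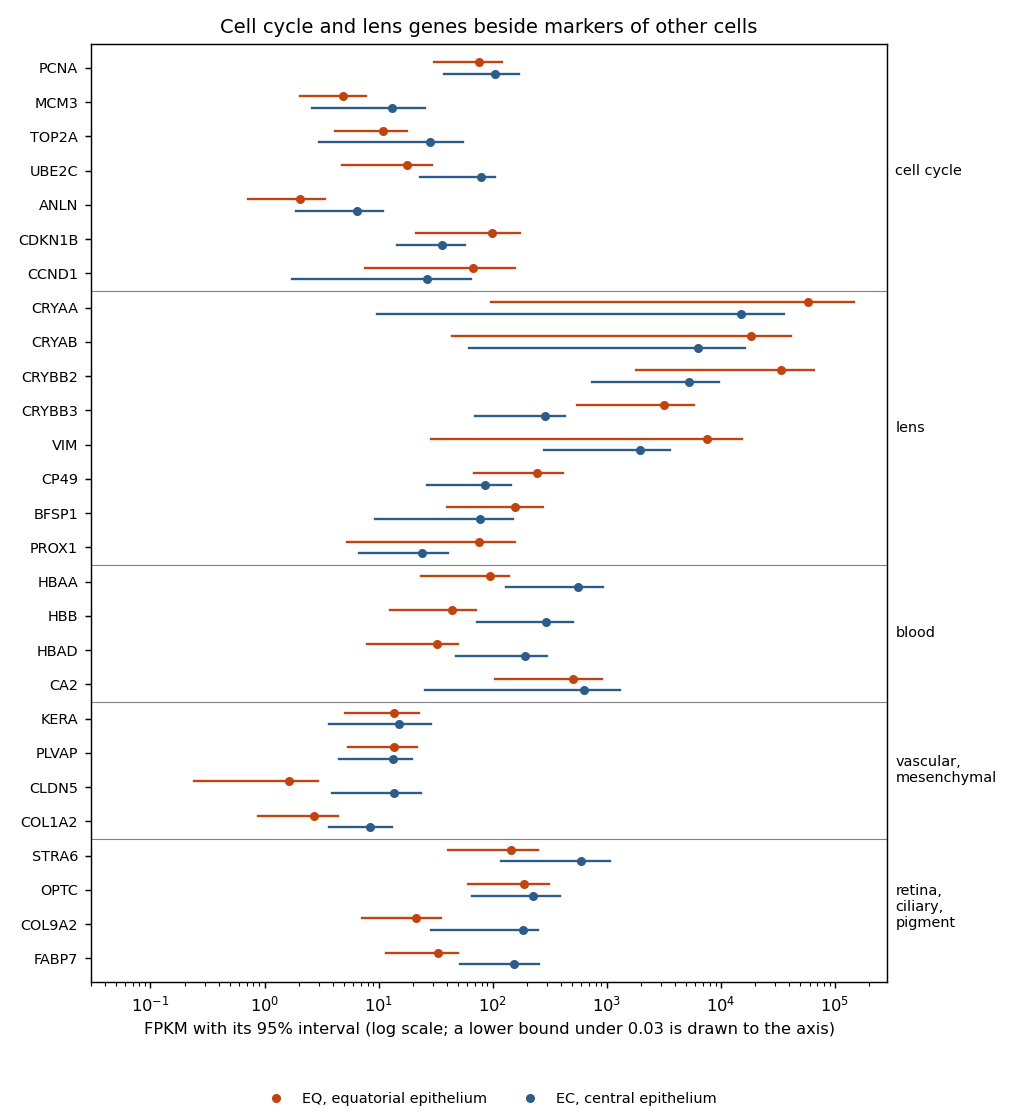
FPKM (log scale) in EQ (orange-red) and EC (blue) of cell cycle genes, lens genes and the 4 most abundant markers of blood, of vascular and mesenchymal cells and of retina, ciliary and pigment epithelium, with the 95% intervals of the deposited table. HBB, CLDN5 and FABP7 have lower values in EQ with separate intervals, KERA, PLVAP, OPTC and CA2 overlap, and CRYBB3 is higher in EQ with separate intervals.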

How the data were processed

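RNA was extracted from microdissected lens regions of embryonic day 13 chickens, and directional mRNA libraries were prepared from 2 pools of 100 lenses per region. The authors aligned reads to galGal4 with TopHat and computed FPKM with Cufflinks and Cuffdiff 2.1.1, and delta-crystallin ASL1 was omitted from that run. The deposited table gives 1 FPKM value per locus and region with the bounds of its 95% interval, after the libraries of a region were pooled. The paper gives an approximate range of reads per lens region after filtering. Read counts per locus and values per library were not analysed here. A second deposited table holds the authors' pairwise comparisons (fold changes, p-values and q-values) and was not used. There were 0 other columns of per-sample values.

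The log2 ratio of EQ over EC was computed without a pseudocount in Python 3.11.15 with numpy 2.4.6 and pandas 2.3.3, and figures were drawn with matplotlib 3.10.9. Ratios were centred on the median of loci at 1 FPKM or more in both regions. A locus was counted as higher or lower at 2-fold or more. Intervals were called separate when they did not overlap after the EQ bounds were divided by the centring factor, and loci with an FPKM above their own upper bound were left out of that count. The calculation was tested on simulated data.

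Named loci were the 15 largest ratios in each direction among single-gene loci at 5 FPKM or more in the higher region and 1 in the other, up to 4 loci past 2-fold in each direction per list or else its 2 most abundant, the 3 most abundant loci under 0.1 FPKM in the other region, a set of lens genes, and the 4 most abundant markers of each marker list. Loci whose FPKM exceeds its own upper bound were not eligible for the largest ratios. The members and lists were chosen with earlier results of these data known. Each alternative changed 1 choice of scaling, minimum, pseudocount, threshold or locus filter. Some loci that meet this rule are not reported here.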

Additional observations from a re-analysis of the deposited data

How the results depend on the processing

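Without centring, 830 loci were 2-fold or more higher in EQ, 77 of them with separate intervals, and 787 were lower. With an FPKM minimum of 5 the counts were 347 higher and 518 lower. With no minimum 1959 were lower, and with a pseudocount of 1 FPKM 684 were lower. A threshold of 1.5-fold gave 1175 higher and 1770 lower, and a threshold of 3-fold gave 214 higher and 533 lower. The counts as reported were 525 higher and 1061 lower. The FPKM minimum changes the loci admitted and the threshold changes the limit applied, whereas centring and the pseudocount change the ratio of the same loci.

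Of 28 gene list medians, 16 kept their sign in every setting run and 12 did not, 10 of them because their sign turns without centring. Of 177 named loci past 2-fold, 0 turned sign in any alternative. That outcome was fixed by choosing loci past 2-fold, since no alternative moves a ratio that far. It is therefore no measure of their certainty. Among the other named loci, SOX2, GAPDH, COX6C and PLVAP turned sign without centring, to 0.23, 0.18, 0.01 and 0.0027. At 9 loci an alternative put the ratio under 2-fold, namely NUMB, DUSP7, DUSP4, DLL1, TP53INP1, SEMA3D, POMC, KREMEN1 and CYP26C1. Leaving out the loci of the 3 marker lists, an alternative chosen after seeing the data, gave 521 higher and 1025 lower. It removes 50 members and cannot show the part of other cells in the remaining loci.

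No paired analysis was possible because the table holds 1 pooled value per region and no value per library. Leaving out each replicate in turn was not run for the same reason. The spread between libraries is therefore known here only through the authors' intervals, and without read counts per locus no limit for loci listed at 0 is given.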
